A study of Mus musculus with 16 samples.

Results

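The smooth muscle contractile genes measured here are Acta2, Actg2, Tagln, Cnn1, Myh11, Mylk, Myl9, Tpm1 and Tpm2, 9 genes of the 18193 that had a probe set of their own on the arrays. They were taken by symbol, with every probe set (a group of short probes whose combined brightness is 1 signal) that the annotation assigned to them. This gave 20 probe sets, of which 17 reached a signal of 200 on at least 2 arrays and were tested, among 19895 tested in all. The 3 that did not were 1 probe set each of Myh11 (1418122_at), Mylk (1425504_at) and Tpm1 (1447713_at), and they reached a signal of 200 on 0 of 16 arrays. Each of the 9 genes kept at least 1 tested probe set, and a gene is described by the brightest of them unless another is named.

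RNA came from primary fibroblasts of e14.5 mouse embryos, and each of 4 lines was hybridised once per treatment, which gave 16 arrays. All 4 lines had received Cre, a recombinase that removes conditional (flox) alleles, from an adenovirus at passage 3 and had then been expanded. The triCH1 class was formed by triCH1flox1 (CBP CH1/flox; p300 CH1/CH1) and triCH1flox2 (CBP CH1/CH1; p300 CH1/flox), in which 3 of the 4 alleles of these histone acetyltransferase genes lacked the CH1 domain and the other was conditional. The control class was formed by flox1 (CBP +/flox) and flox2 (p300 +/flox), which also carried a conditional allele exposed to Cre and so are not wild type. Cells received trichostatin A (TSA, an inhibitor of histone deacetylases, 100 ng/ml) followed after 30 min by dipyridyl (DP, an iron chelator, 100 µM), or TSA alone, DP alone, or ethanol vehicle, and were lysed 3 h after the second addition. Each class thus held 2 lines of different genotype, and no line had a second culture.

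Smooth muscle cells contract when myosin filaments pull on actin filaments, and the genes described here encode the actins, the myosin and the proteins that sit on or regulate these filaments. Many of them are switched on by serum response factor (SRF), which binds a short DNA element called the CArG box and works with the myocardin-related coactivators MRTF, whose entry into the nucleus depends on the state of actin in the cell. Cultured fibroblasts, above all those grown on stiff plastic or exposed to TGF-beta, are known to express part of this programme, and alpha smooth muscle actin is the usual mark of such myofibroblasts. CBP and p300 acetylate histones and act as coactivators for many transcription factors, and deacetylase inhibitors raise histone acetylation.

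The CArG element is shown for the 2 genes in which it was found. The reference tables held the 250 bases before the start of 6 of the 9 genes (Acta2, Cnn1, Mylk, Myl9, Tpm1 and Tpm2; RefSeq, GRCm38.p6), and both strands were searched for the CArG box, exact or with 1 mismatch in its 6-base core. No entry was read for Actg2, Tagln or Myh11. Acta2 lies on chromosome 19 (34240336 to 34255585) and its window held 2 elements with 1 mismatch each, which began 84 and 34 bases before the start that the table uses. That start lies inside the annotated span of Acta2, so both elements lie within the span and not before it. Myl9 lies on chromosome 2 (156775408 to 156781657) and its window held 1 exact element, 161 bases before the start, and 1 with a mismatch, 99 bases before it. For Myl9, too, the start used lies inside the annotated span, so the elements are nearer to the edge of the span. The elements are in capitals, within 30 bases of the Acta2 window (minus strand, chr19:34255438-34255467 and chr19:34255388-34255417) and in the bases of the Myl9 window that precede its annotated span (plus strand, chr2:156775214-156775407).
Acta2 first element: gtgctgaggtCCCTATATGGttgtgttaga
Acta2 second element: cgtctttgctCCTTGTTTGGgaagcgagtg
Myl9: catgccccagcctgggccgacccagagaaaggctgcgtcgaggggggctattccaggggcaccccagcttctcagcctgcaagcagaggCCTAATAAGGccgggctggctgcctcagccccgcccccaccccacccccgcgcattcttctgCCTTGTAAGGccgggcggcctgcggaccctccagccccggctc
Of 32851 windows of this length in the table, 1.47% held an exact element and 8.59% held one with at most 1 mismatch. In the windows of Cnn1, Mylk, Tpm1 and Tpm2 these letters were not present, which says nothing of elements farther away. The windows of Mylk (chr16:34784700-34784949) and Tpm1 (chr9:67049214-67049463) lie wholly inside the annotated spans, so the bases before those spans were not searched. The other genes lie on chromosome 6 (Actg2, 83512909 to 83536251), chromosome 9 (Tagln, 45929628 to 45936058, Cnn1, 22099221 to 22109221, and Tpm1, 67022590 to 67049672), chromosome 16 (Myh11, 14194527 to 14292188, and Mylk, 34745199 to 35002436) and chromosome 4 (Tpm2, 43513726 to 43523583), and all 9 are protein-coding.

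All 9 genes gave signal in the embryonic fibroblasts. Acta2, alpha smooth muscle actin, ran from 33239 to 49084 over the 16 arrays, with a median of 41452, and the brightest probe set on each array had 42346 to 54585, so that Acta2 lay near the upper end of what the arrays recorded. Tagln (transgelin, an actin-binding protein of the contractile apparatus) ran from 18662 to 28989 and Myl9 (the regulatory light chain of smooth muscle myosin) from 15497 to 21591. The tropomyosins Tpm1 and Tpm2, which lie along the actin filament, ran from 18137 to 24738 and from 27215 to 41118. Signals of different probe sets cannot be ranked against each other, but 7 of the 17 tested probe sets had a mean above 10000, as did 453 of all 19895.

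Of the other 4 genes, Cnn1, Actg2 and Myh11 are, as textbook background, more restricted to differentiated smooth muscle. Cnn1 (calponin, an actin-bound inhibitor of the myosin ATPase) ran from 4248 to 9084 and Actg2, the enteric smooth muscle actin, from 2221 to 5858. Mylk, the kinase that phosphorylates the myosin light chain and so starts contraction, ran from 490.0 to 1205. Myh11, the smooth muscle myosin heavy chain, ran from 121 to 485 and reached a signal of 200 on 8 of 16 arrays. Acta2 had 2 further tested probe sets, 1444105_at with 193 to 704.5 and 1456658_at with 62.1 to 449. The probe set 1416454_s_at that represents Acta2 carries a suffix that Affymetrix gave to probes shared by several transcripts. Some of its signal, and of Tpm2 1449577_x_at, could thus come from related transcripts, which was not tested.

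**Figure D1:**
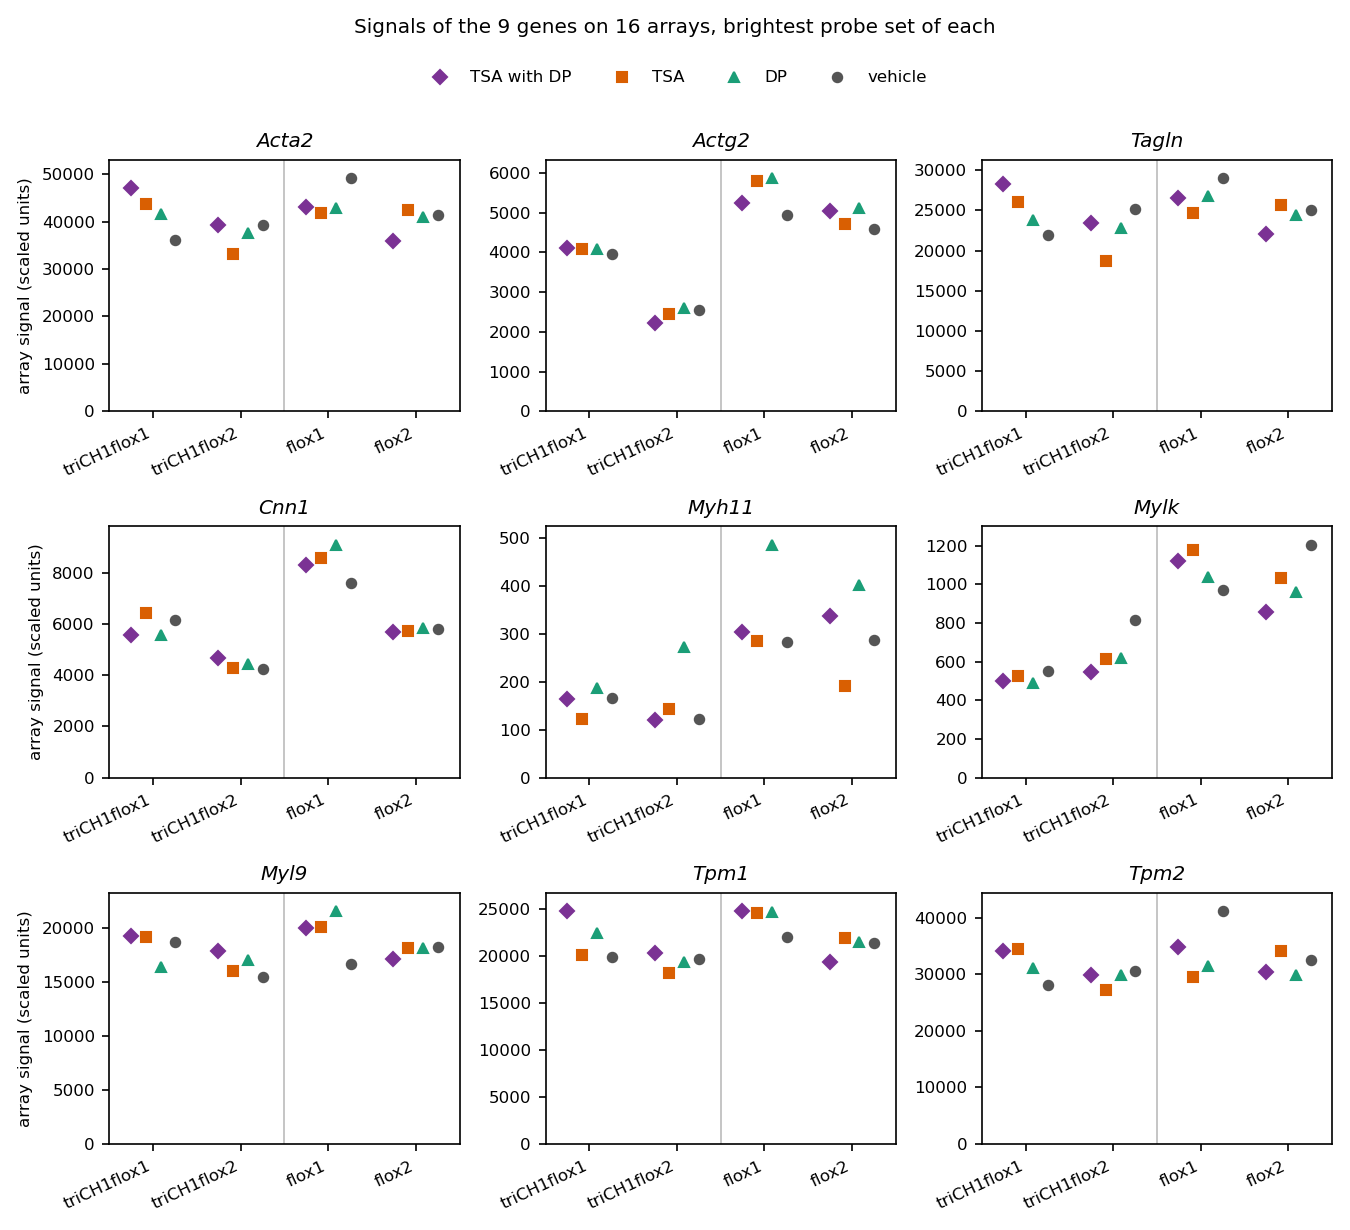
Array signal (linear, scaled units, axis from 0) of the brightest probe set of each of the 9 genes in the lines triCH1flox1, triCH1flox2, flox1 and flox2, with 1 point for each array: TSA with DP (diamonds), TSA (squares), DP (triangles) and vehicle (circles). The triCH1 arrays lie below the control arrays for Actg2 (2221 to 4109 against 4598 to 5858) and Mylk (490.0 to 817 against 857 to 1205), and the treatments of a line lie close together for most genes.

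Median signals lay between 103 and 154, and a signal of 200 was reached by 36.8% to 42.6% of probe sets on an array. One array, that of flox1 with vehicle, differed from the rest in the 3' to 5' ratios of its control probe sets. For Gapdh the ratio was 2.59, where the other 15 arrays had 0.907 to 1.26. For actin it was 2.07, where they had 1.29 to 1.63. Xist, the RNA of the inactive X chromosome, had a mean of 3068 in the triCH1 lines and 43.3 in the control lines, and the Y-linked Eif2s3y had 29.2 and 1290, so that sex and CH1 class cannot be told apart. Of 12 fibroblast markers, 12 passed the filter. Their summed signal ran from 184435 to 231000 on triCH1 arrays and from 208032 to 244902 on control arrays. Not all of them were bright, and Dcn had 129 to 496 on triCH1 arrays and 97.6 to 297 on control arrays. The same filter was passed by 4 of 7 macrophage and 3 of 7 epithelial markers. Markers of other contractile or vascular cells were mostly low: 4 of 8 pericyte, 4 of 13 skeletal muscle, 1 of 9 cardiac muscle and 1 of 7 endothelial markers passed the filter. The muscle regulator Myod1 and the endothelial marker Pecam1 stayed at 160 and 154 or less on every array. The markers of those 2 cell types that gave signal included the skeletal actin Acta1, with 4841 to 8533 on triCH1 arrays and 5697 to 10121 on control arrays, and the endothelial receptor Flt1, with 129 to 361 and 211 to 470.

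The first comparison asked whether TSA changed the contractile genes by 3 h after the second addition, and none of their probe sets passed the test. Of the 17 probe sets 0 rose and 0 fell (limma, adjusted p under 0.05 over all 19895 probe sets tested), in a comparison that called 4409 probe sets, 22.2% of those tested. At an unadjusted p under 0.05 there was 1 of 17, against 6733 of 19895. Over the 9 genes the differences TSA minus vehicle ran from -0.16 (Myh11) to 0.085 (Myl9) on the scale of log2(signal + 50), with a median of -0.041. The median size of these differences was 0.071, against 0.28 over all probe sets tested. Among the 453 probe sets with a mean above 10000, TSA changed 54 (11.9%).

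Among the actins, Acta2 had signals of 43791, 33239, 41851 and 42330 with TSA in triCH1flox1, triCH1flox2, flox1 and flox2, against 36164, 39344, 49084 and 41384 with vehicle in the same lines. The groups overlapped, with 2 lines up and 2 down. The difference was -0.041 (SE 0.0776, 95% interval -0.21 to 0.12, adjusted p = 0.762, limma). The interval is one of signal, and whether a signal so near the top of the arrays follows the RNA level in full was not tested. Actg2 had 4082, 2437, 5781 and 4708.5 with TSA, against 3960, 2556, 4941 and 4598 with vehicle. It was higher with TSA in 3 of 4 lines, by less than the lines differed from each other (0.058, 95% interval -0.12 to 0.24, adjusted p = 0.688, limma).

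The actin-binding proteins did not pass either. Tagln had 26066, 18662, 24642 and 25631 with TSA, against 21974, 25164, 28989 and 25034.5 with vehicle, with 2 lines up and 2 down (-0.096, 95% interval -0.29 to 0.097, adjusted p = 0.501, limma). The lines moved as they did for Acta2, up in triCH1flox1 and flox2 and down in triCH1flox2 and flox1. Cnn1 had 6440, 4280, 8585 and 5708 with TSA, against 6142, 4248, 7588 and 5796 with vehicle. It averaged 6253 ± 1794 with TSA and 5943 ± 1371 with vehicle (SD, n = 4 lines), and the adjusted p was 0.680 (limma).

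Of the myosin genes, Myl9 had 19229, 16006, 20120 and 18141 with TSA, against 18780, 15497, 16676 and 18269 with vehicle. The difference of 0.085 (95% interval -0.083 to 0.25) did not pass the test (adjusted p = 0.493, limma). Mylk averaged 838 ± 317 with TSA and 886 ± 273 with vehicle (SD, n = 4 lines; adjusted p = 0.680, limma). Myh11 averaged 185 ± 72.0 with TSA and 215 ± 82.9 with vehicle (SD, n = 4 lines), and its interval, -0.64 to 0.32, was the widest of the 9. Its lower end is a ratio of 0.642, TSA to vehicle, with the constant of the log2 scale added to each signal. For so dim a probe set that constant matters, and the ratio of the signals themselves at this end is lower.

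The tropomyosins Tpm1 (21146 ± 2714 with TSA, 20721 ± 1130 with vehicle) and Tpm2 (31296 ± 3523 with TSA, 33060 ± 5666 with vehicle; SD, n = 4 lines) differed by 0.022 and -0.071, less than the spread between lines. The member probe set closest to the threshold was Tpm2 1449577_x_at, at -0.27 (SE 0.119, adjusted p = 0.124, limma), lower with TSA in 3 of 4 lines. Its largest fall was in flox1, whose vehicle array read 7002 and had the raised 3' to 5' ratios. When flox2 was left out, 2 of 17 probe sets passed, Tpm2 1449577_x_at (-0.47, adjusted p = 0.0188) and Tpm1 1423049_a_at (0.31, adjusted p = 0.0326, limma), and without the flox1 vehicle array the second of these had the other sign, -0.033.

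**Figure D2:**
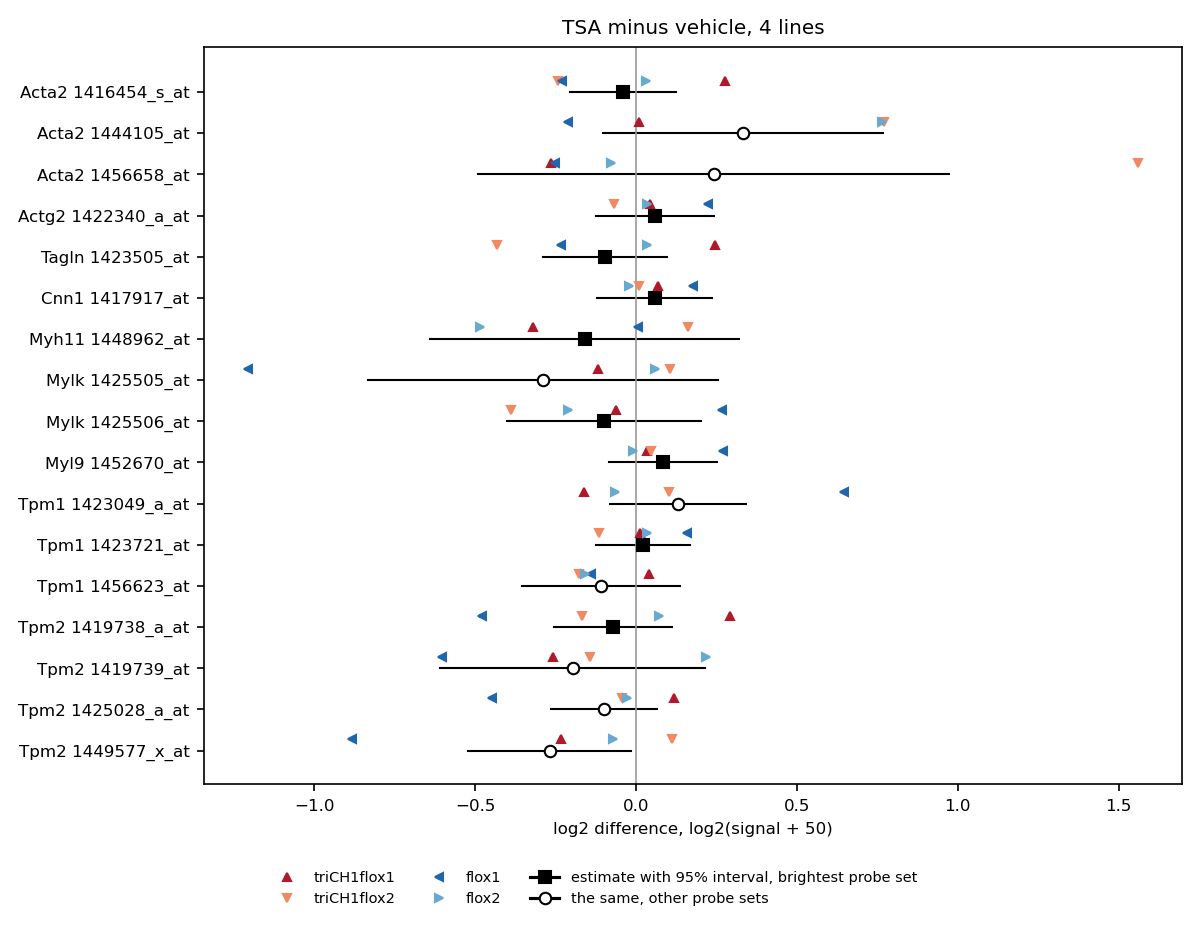
Difference TSA minus vehicle (x axis, log2(signal + 50)) for the 17 tested probe sets, with the estimate over 4 lines and its 95% interval (black, filled for the brightest probe set of a gene) and the change in each line (coloured triangles). The estimates of the 9 filled symbols lie between -0.16 and 0.085, and the widest departures of single lines belong to dim probe sets and to flox1.

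TSA was also given with DP, on arrays that the first comparison does not use. Against DP alone, TSA with DP changed 4686 probe sets (23.6% of those tested) and 0 of the 17 member probe sets, with 2 of 17 and 6906 of 19895 at an unadjusted p under 0.05. Over the 9 genes the differences ran from -0.47 (Myh11, adjusted p = 0.152) to 0.072 (Tpm2), with a median of 0.016. The 2 probe sets closest to the threshold moved the same way in 4 of 4 lines. Tpm2 1419739_at was lower with TSA and DP (316 ± 80.4) than with DP (464 ± 72.6; SD, n = 4 lines; adjusted p = 0.0732), and Acta2 1444105_at was higher (504 ± 177 against 331 ± 95.3; adjusted p = 0.0781, limma). Tpm2 1419739_at passed without the flox1 vehicle array (adjusted p = 0.0407, limma), and Acta2 1444105_at passed with the array series given in the labels as a term (0.65, adjusted p = 0.0431, limma). The labels set the TSA, DP and TSA with DP arrays of triCH1flox1, and the TSA with DP array of flox2, in a series apart from all other arrays. In triCH1flox1 the series thus cannot be told apart from treatment against vehicle.

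The TSA change did not differ detectably between the classes. Of the difference between the changes, triCH1 minus control, limma called 0 of 19895 probe sets (0%), with 1142 at an unadjusted p under 0.05, and 0 of the 17 member probe sets at either level. For Acta2 the TSA change averaged higher in the triCH1 lines by 0.11 (95% interval -0.21 to 0.44), and for Tagln by 0.0078 (95% interval -0.38 to 0.39). For Myh11 the interval, -0.80 to 1.12, left room for a difference of over 2-fold.

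The second comparison set the triCH1 lines against the control lines over all treatments. All 17 member probe sets had lower estimates in the triCH1 lines, but 0 of 17 passed the test (limma on line means, 2 lines against 2), in a comparison that called 17 of all 19895 probe sets (0.0854%; 3 up and 14 down). Estimates below 0 were found for 9766 of the 19895. At an unadjusted p under 0.05 there were 6 of 17 member probe sets, against 1975 of 19895. These counts include Myh11, which reached a signal of 200 on 1 triCH1 array and 7 control arrays and so passed the filter through the class in which it was higher. Estimates were between -0.44 and -0.80 for Actg2, Cnn1 and Mylk and between -0.090 and -0.13 for Acta2, Tagln, Myl9, Tpm1 and Tpm2. With 2 lines a class, an exact permutation test cannot reach 0.05, and in bulk RNA fewer cells of a type and less RNA per cell cannot be told apart.

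Mylk had the member probe set with the smallest p. Its lowest, median and highest signals (1425506_at) were 490.0, 549 and 817 on the 8 triCH1 arrays, against 857, 1036 and 1205 on the 8 control arrays. The groups did not overlap. Line means were 517 in triCH1flox1 and 648 in triCH1flox2, against 1076 in flox1 and 1014 in flox2, a difference of -0.80 (1.74-fold, SE 0.149, n = 2 lines each, adjusted p = 0.155, limma). A second probe set, 1425505_at, ran from 81.7 to 295 on triCH1 arrays and from 212 to 769 on control arrays (-0.87, SE 0.204, adjusted p = 0.247, limma). It overlapped between the classes.

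Actg2 was the other gene whose arrays did not overlap. Its lowest, median and highest signals were 2221, 3285 and 4109 on triCH1 arrays, against 4598, 5073 and 5858 on control arrays. The 2 triCH1 lines also differed from each other, with means of 4061 ± 68.2 in triCH1flox1 and 2456 ± 172 in triCH1flox2 (SD over 4 treatments). The control lines had 5453 ± 441 in flox1 and 4863 ± 248 in flox2. The difference was -0.69 (1.62-fold, SE 0.204, adjusted p = 0.348, limma), with a range of -1.05 to -0.34 as each line was left out. It passed without triCH1flox1 (-1.05, adjusted p = 0.0284, limma), a fit with 1 triCH1 line, and had its smallest size without triCH1flox2 (-0.34), where it did not pass. Signals on all 8 triCH1 arrays below those on all 8 control arrays were found for 2 of the 17 member probe sets and for 113 of all 19895 (0.568%), and the 4 arrays of a line are not independent.

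Myh11 and Cnn1 were lower in both triCH1 lines with overlap between arrays. Myh11 ran from 121 over a median of 153 to 272 on triCH1 arrays, against 190, 295 and 485 on control arrays (-0.80, SE 0.195, adjusted p = 0.255, limma). Its line means were 160 and 165 in the triCH1 lines, below the filter value of 200, against 339 and 304 in the control lines, and its difference is given as a description for the reason above. Cnn1 ran from 4248 over a median of 5103 to 6440 on triCH1 arrays, against 5697, 6705 and 9084 on control arrays (-0.44, SE 0.190, adjusted p = 0.498, limma). Its highest arrays were the 4 of flox1, 7588 to 9084, while flox2 (5697 to 5823) lay within the range of triCH1flox1 (5550 to 6440). Without flox2, Cnn1 (-0.71, adjusted p = 0.0294) and Mylk 1425506_at (-0.84, adjusted p = 0.0265) passed, a setting that leaves 1 control line, assumed to vary like the others, and calls 402 probe sets in all (limma). Without flox1, Cnn1 was at -0.17 (adjusted p = 0.968) and Mylk 1425506_at at -0.76 (adjusted p = 0.145, limma), and neither passed.

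By their brightest probe sets, the other 5 genes differed little between the classes. Acta2 ran from 33239 over a median of 39288 to 47146 on triCH1 arrays, against 35966, 42090 and 49084 on control arrays (-0.090, 95% interval -0.29 to 0.12, adjusted p = 0.783, limma). Its dimmer probe sets had larger differences without passing. They were at -0.45 for 1444105_at (95% interval -0.79 to -0.10, adjusted p = 0.406) and -0.29 for 1456658_at (95% interval -1.04 to 0.46, adjusted p = 0.809, limma). Tagln averaged 23786 ± 1763 in the triCH1 lines and 25525 ± 1742 in the control lines (SD, n = 2 lines each), and Myl9 averaged 17514 ± 1275 and 18767 ± 1197. Tpm1 averaged 20572 ± 1718 in the triCH1 lines and 22509 ± 2069 in the control lines, and Tpm2 30628 ± 1787 and 32981 ± 1767. By the brightest probe sets, the differences of these 5 genes were at most 1.09-fold, with adjusted p from 0.702 to 0.783 (limma). On the TSA with DP arrays alone, the estimates of Acta2, Tagln, Myl9 and Tpm1 had the other sign (0.13, 0.091, 0.00033 and 0.034).

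**Figure D3:**
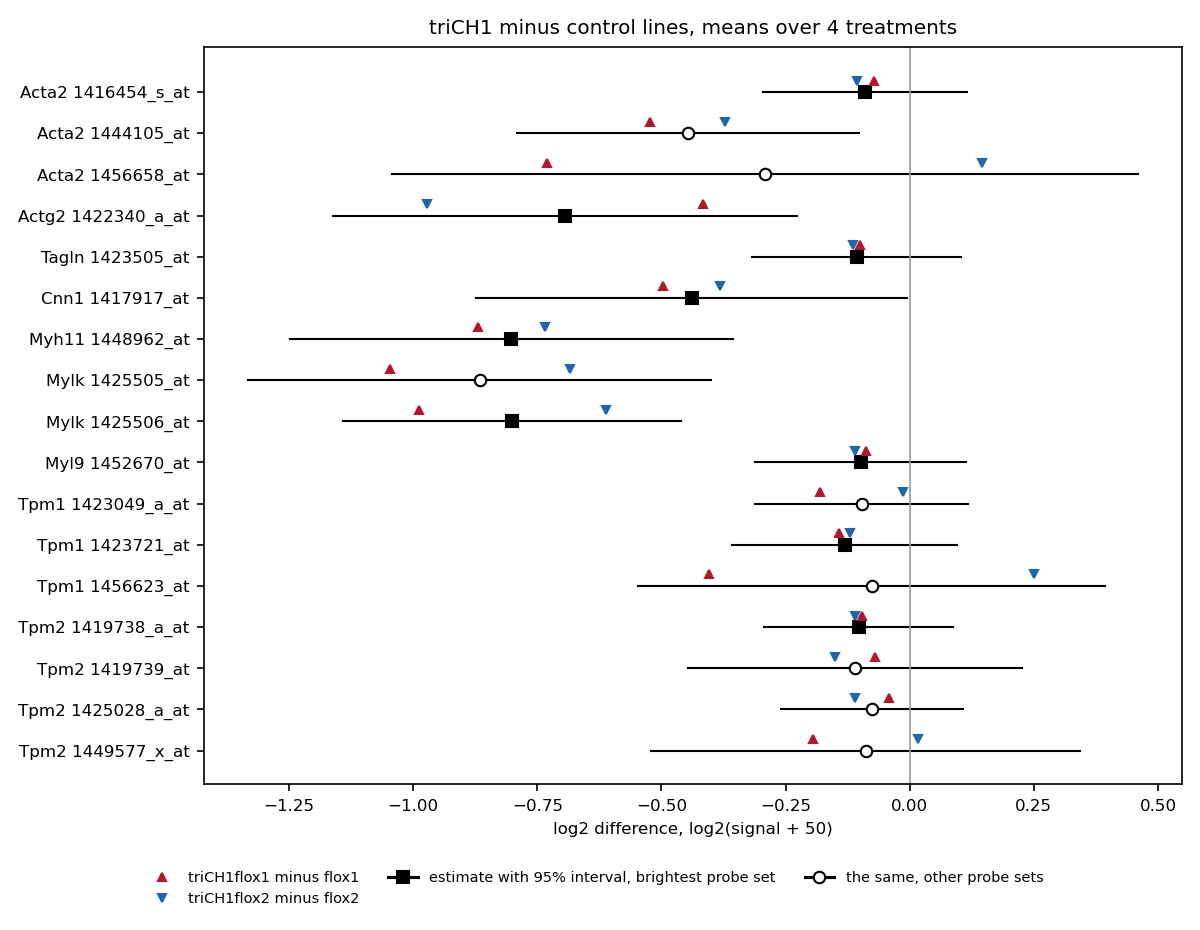
Difference triCH1 minus control (x axis, log2(signal + 50), means over 4 treatments) for the 17 tested probe sets, with the estimate and its 95% interval (black, filled for the brightest probe set of a gene) and the differences triCH1flox1 minus flox1 and triCH1flox2 minus flox2 (coloured triangles). Actg2, Cnn1, Mylk and the dim Myh11 lie between -0.44 and -0.80, and the other 5 filled symbols lie between -0.090 and -0.13.

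The summed signal of all 8 pericyte markers on the list ran from 1658 to 3141 on triCH1 arrays and from 3308 to 4598 on control arrays. How often sums over other genes differ as much was not tested. The brightest of the 8 was Cspg4, with 964 to 1950 on triCH1 arrays and 1833 to 2736 on control arrays, which overlap. Of the 4 that were tested (Cspg4, Mcam, Notch3 and Des, the last also a smooth muscle gene), 0 passed between the classes. Their estimates were between -0.33 and -0.67, with adjusted p from 0.225 to 0.583 (limma). Of the other 4 pericyte markers, Rgs5 stayed at 217 or less, and Abcc9, Kcnj8 and Anpep at 116, 126 and 222 or less. Thy1, a surface protein of fibroblasts, was lower in the triCH1 lines (3415 to 5076 against 5890 to 8280 on control arrays, -0.87, adjusted p = 0.0306, limma). It was 1 of 12 fibroblast markers to pass, where 2 of all 11481 genes rose and 13 fell, by their brightest probe sets. The part of pericyte-type cells or of sex in the differences of the contractile genes was not tested.

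Other genes of the contractile cytoskeleton were compared in the same fits. Of 22 tested, 0 rose and 1 fell between the classes, where 2 of all 11481 genes rose and 13 fell. The 1 that fell was Dstn, destrin, which depolymerises actin. It had 8732 to 11318 on triCH1 arrays against 15734 to 17832 on control arrays (-0.76, 1.70-fold, SE 0.0873, adjusted p = 0.0306, limma). The median difference over the 22 was -0.22, against -0.0072 over all genes tested, by their brightest probe sets. Synpo2, which binds actin and alpha-actinin, was dim, with 22.7 to 398 on triCH1 arrays and 208.5 to 446 on control arrays. Its difference was -0.95 without passing (adjusted p = 0.203, limma). Of 16 non-muscle paralogs, such as Actb, Actg1, Myh9 and Tpm4, 0 passed in this comparison, with a median of -0.028.

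With TSA, 3 of the 22 other smooth muscle genes rose, 4 fell and 15 did not pass, where 22.2% of all probe sets tested were called. Of all 11481 genes tested, by their brightest probe sets, 1670 rose and 1310 fell. Tgfb1i1 (Hic-5, a focal adhesion partner of TGF-beta signalling) fell to 1930 ± 146 with TSA, against 5142 ± 812 with vehicle (SD, n = 4 lines; -1.38, adjusted p = 1.31e-06, limma). On the log2 scale Nexn, which binds actin filaments, fell by 0.64 and Filip1l fell by 0.60, while Itga7, a laminin receptor, rose by 0.77. The dim Synpo2 rose by 1.11, from 22.7 to 347 with vehicle and 236.5 to 446 with TSA over the 4 lines. Among the 16 paralogs 1 rose, 1 fell and 14 did not pass, beside the same counts over all genes. Both that passed are myosin light chains. Myl12b, a regulatory light chain of non-muscle myosin, had 4576 ± 319 with TSA against 2847 ± 189 with vehicle (0.67, adjusted p = 7.38e-05, limma), and its other tested probe set was at 0.44 without passing. Myl6, an essential light chain, had 642 ± 107 with TSA against 1252 ± 208 with vehicle (-0.91, adjusted p = 0.000819, limma).

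Of 18 SRF and MRTF regulators, 2 rose, 6 fell and 10 did not pass with TSA, where 1670 of all 11481 genes rose and 1310 fell. Prrx1, a homeobox factor known to act with SRF, fell by 1.11 on the log2 scale to 4340 ± 1080 with TSA, against 9321 ± 1682 with vehicle (adjusted p = 8.02e-07, limma), and 3 of its 4 other probe sets fell too. The SRF partner Elk4 fell by 1.10, although its other probe set did not pass (-0.56), and Elk3, of the same family, fell by 0.68, with 1 of its 3 others. Fhl2, an SRF target and cofactor, fell by 0.77. Srf itself fell by 0.34 (adjusted p = 0.0441, limma), and Mef2c and Klf4 rose by 1.02 and 0.42. Of 11 genes of the TGF-beta pathway, 1 rose (Tgfbr1, 0.52), 5 fell and 5 did not pass. Smad4 (-0.66) and Smad2 (-0.65) fell with all their other tested probe sets, 2 and 1, while the other probe set of Smad7 (-0.72) did not pass, at -1.07. Between the classes 0 of the 18 and 0 of the 11 passed.

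Of 9 genes that set the phosphorylation of myosin light chains, 3 passed with TSA, where 1670 of all 11481 genes rose and 1310 fell. Of the myosin phosphatase subunits, Ppp1r12a fell by 0.86 and Ppp1cb fell by 0.32, by their brightest probe sets. Of the 3 other tested probe sets of each, 0 passed, with estimates from -0.52 to -0.15 for Ppp1r12a and from -0.35 to -0.034 for Ppp1cb. With TSA and DP against DP, Ppp1r14a, an inhibitor of this phosphatase, also passed, at 1.22 (329 ± 108 against 110 ± 21.8; adjusted p = 0.00266, limma). Acta1, the skeletal actin, whose sequence is close to that of Acta2, rose with TSA to 8091 ± 1596, against 6350 ± 1103 with vehicle (0.34, adjusted p = 0.0145, limma). Crebbp, the gene of CBP, fell by 1.56 with TSA, and Ep300, that of p300, fell by 1.59.

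**Figure D4:**
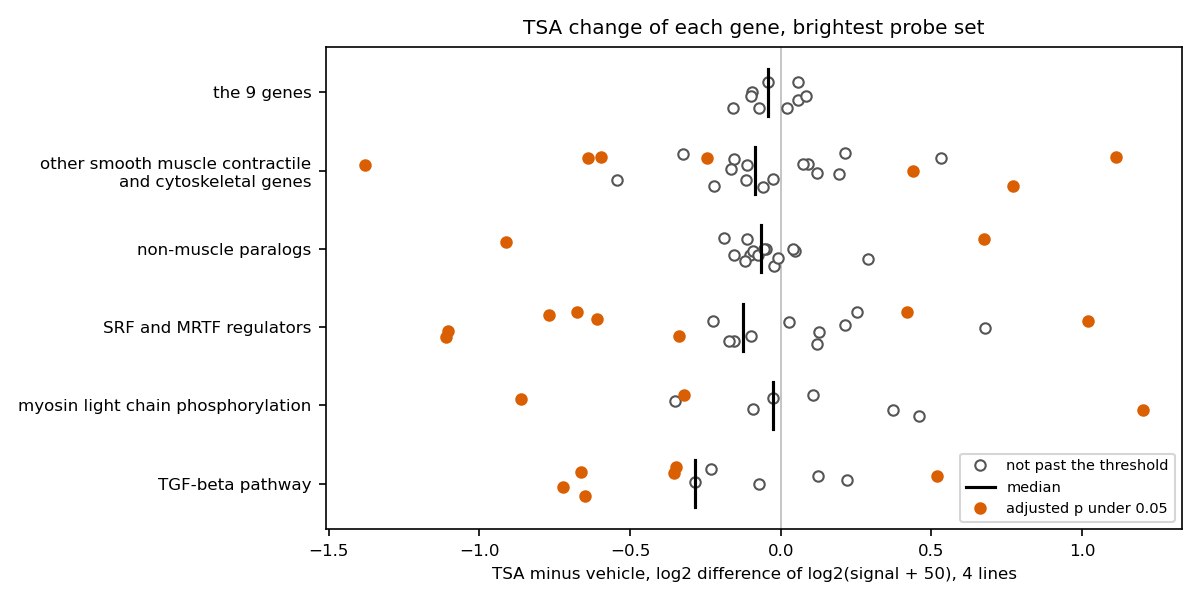
Difference TSA minus vehicle (x axis, log2(signal + 50), 4 lines) of each gene's brightest probe set, by gene list, with open circles for genes that did not pass, filled circles for adjusted p under 0.05 and a bar at each list's median. The 9 contractile genes lie between -0.16 and 0.085 with none filled, while the SRF and MRTF regulators reach -1.11 and 1.02.

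DP alone, against vehicle, changed 236 probe sets (1.19%), of which 22 fell (0.111% of those tested). Of the 17 member probe sets, 0 rose and 1 fell, Tpm1 1456623_at. It had 1646, 1675, 2383 and 1080 with DP in triCH1flox1, triCH1flox2, flox1 and flox2, against 2323, 2212, 3399 and 2218 with vehicle. It was lower in 4 of 4 lines, although the groups overlap across lines (-0.60, 1.51-fold, SE 0.116, adjusted p = 0.0127, limma). The call was lost without triCH1flox1 (adjusted p = 0.122), without triCH1flox2 (0.130), without flox2 (0.0977), without a variance trend (0.117) and without the line term (0.398).

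The other probe sets of Tpm1 did not fall with DP. The brightest, 1423721_at, had 22467, 19324, 24691 and 21508 with DP in the same order of lines, against 19892, 19645, 21965 and 21382 with vehicle (0.082, adjusted p = 0.705, limma). The third, 1423049_a_at, read 24534 with DP and 13163 with vehicle in flox1, and 15786 to 18163 with DP against 14766 to 16744 with vehicle in the other 3 lines (0.28, adjusted p = 0.276, limma). Without flox2 it passed, at 0.46 (adjusted p = 0.0193), and without flox1 it was at 0.097 (adjusted p = 0.925, limma). Tpm1 is known to be spliced into many isoforms, and which of them each probe set reads is not stated in the labels or the annotation used.

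**Figure D5:**
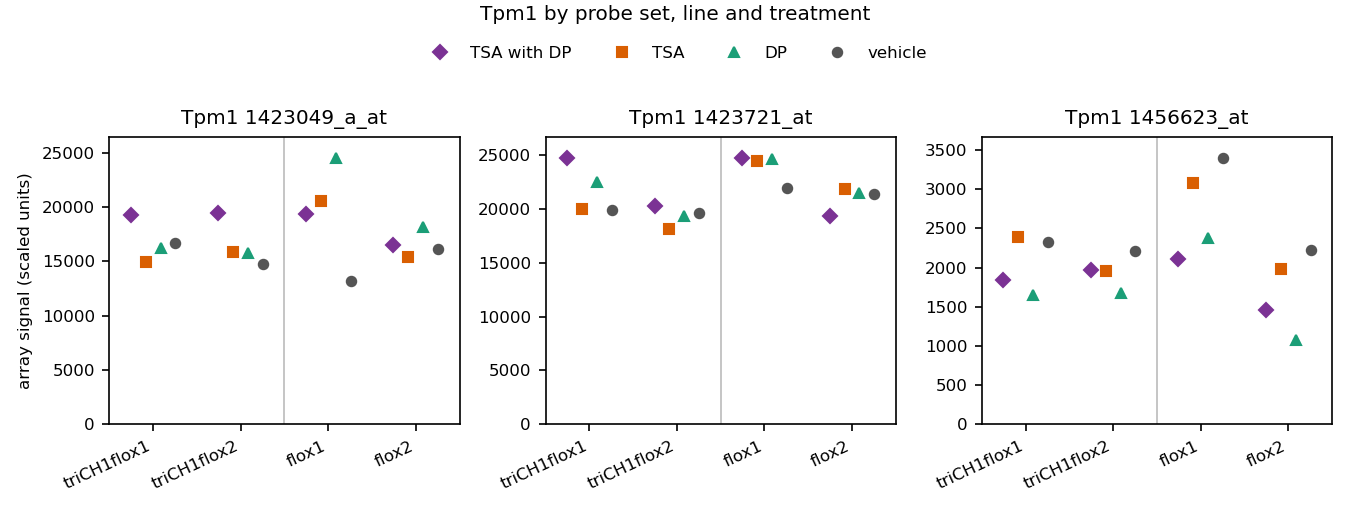
Array signal (linear, scaled units, axis from 0) of the 3 tested probe sets of Tpm1 in 4 lines, with 1 point for each array and symbols by treatment. In 1456623_at DP (triangles) lies below vehicle (circles) in every line, and in 1423049_a_at the vehicle array of flox1 (13163) is the lowest of 16.

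The other 8 genes did not pass with DP. Myh11 was higher with DP in 4 of 4 lines, 336 ± 133 against 215 ± 82.9 with vehicle (SD, n = 4 lines; 0.53, 95% interval 0.054 to 1.02, adjusted p = 0.371, limma). Differences of the remaining 7, by their brightest probe sets, ran from -0.19 (Mylk) to 0.12 (Actg2). The lower probe sets of Acta2 were at -0.38 (1444105_at) and -0.57 (1456658_at), with adjusted p of 0.505 and 0.559 (limma).

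Across the 16 arrays the genes varied in part together. Pearson correlations of log2 values over the 36 pairs ran from 0.129 (Tpm2 with Myl9) to 0.958 (Acta2 with Tagln), with a median of 0.527. Cnn1 with Actg2 and Acta2 with Tpm2 both had 0.858. The arrays share lines and scaling, so these values are a description. The genes most like the mean of the 9 were Ghr (0.929), Loxl3 (0.917), Glipr1 (0.916), Lrrc15 (0.914), Lamp1 (0.914), Tnc (0.911), Dpysl3 (0.909), Tmsb4x (0.896), Grb14 (0.891) and Lpp (0.890). Those most like Acta2 alone were Rps19 (0.910), Tmsb10 (0.902), Rpl35 (0.894), Fn1 (0.891) and Col1a2 (0.891), which are all bright.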

How the data were processed

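Each array gave 1 signal per probe set. Per the labels, the authors computed the deposited intensity values with the statistical algorithm of Affymetrix from biotin-labelled RNA and scaled each array to a trimmed mean of 500. No software version is stated in the labels. Signals were analysed as log2(signal + 50), in probe sets with 1 gene symbol and a signal of at least 200 on at least 2 arrays. Fold differences are ratios of signal + 50. Precision is limited by there being 4 lines.

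Treatment changes were fitted with limma 3.58.1 (R 4.3.3) as 8 class and treatment means with a line term. Classes were compared on line means. Variances followed a trend with signal, p values were adjusted by Benjamini and Hochberg over 19895 probe sets, and the threshold was 0.05. For the classes, p values rest on the spread between lines. For treatments, the line term removes that spread. With 1 culture per line and treatment, those p values rest on how the changes vary among lines, with culture and array noise included. The line term rests on each line having received every treatment: deviations of arrays of 1 line correlated at 0.105 to 0.275 (control) and 0.0454 to 0.317 (triCH1). The fit was also run on simulated data with independent noise drawn at the spread of these data, and no result given here rests on that run. Figures used Python 3.11.15 and matplotlib 3.10.9.

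All 9 genes were named, with up to 4 called genes of each other list by adjusted p, the 10 genes closest to the mean of the 9 and the 5 closest to Acta2. Synpo2, Srf, Mef2c, Klf4, Myod1 and Pecam1, the pericyte markers, and the other probe sets set out in the text were named after their values were seen. Not every gene that this rule names is reported here. The members and lists were chosen with earlier results of these data known. Alternatives covered pseudocounts of 16 and 200, filters, quantile normalization, the variance trend, 1 probe set per gene, the flox1 vehicle array, each line, the line term and the array series.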

Additional observations from a re-analysis of the deposited data

How the results depend on the processing

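The 9 genes kept 0 calls for TSA minus vehicle under every alternative that kept all 4 lines. Leaving out a line gave 0 to 2 member probe sets and 2489 to 3415 probe sets in all (flox1 2812, triCH1flox1 2694, triCH1flox2 2489), against 4409. For TSA with DP minus DP, the array series as a term and leaving out the flox1 vehicle array each gave 1 member probe set, and leaving out a line gave 2722 to 3244 in all (flox1 3095, triCH1flox1 2722, triCH1flox2 2742), against 4686. For the difference of the TSA changes, leaving out a line gave 0 to 73 probe sets, the 73 without flox2. For DP minus vehicle, the count of 1 member became 0 without a variance trend, with no replicate block and without either triCH1 line (0 to 1 over the lines), and the whole count became 126 to 390 (flox1 139, flox2 390, triCH1flox2 126).

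For triCH1 minus control, the 17 calls became 47 with no filter, 11 with quantile normalization, 3 with no variance trend, 3 with a filter of 500, 3 without the flox1 vehicle array, 3 on vehicle arrays, 4 on TSA arrays, 4 on TSA with DP arrays, and 21 to 402 without a line (flox1 77, flox2 402, triCH1flox2 45). Member calls were 0 to 2 without a line. With a replicate block that pairs lines of the same number there were 500 calls and 4 member probe sets: Actg2 (adjusted p = 0.0101), Mylk 1425506_at (0.0109) and 1425505_at (0.0390) and Cnn1 (0.020). The number marks which of CBP and p300 had the conditional allele, and the labels give same-numbered lines no shared animal, litter or batch. Their deviations correlated at -0.0172 to 0.137.

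Sign changes are listed here for estimates that were larger in size than their SE, and the cause was not tested. Smaller estimates changed sign too and are not all listed. For Acta2 1416454_s_at, TSA minus vehicle ran from -0.17 to 0.089 over the settings, and triCH1 minus control from -0.26 to 0.13. Without the flox1 vehicle array, TSA minus vehicle was 0.026 for Tpm2 1419739_at, -0.033 for Tpm1 1423049_a_at, 0.00078 for Tpm2 1425028_a_at and 0.0092 for Mylk 1425505_at, and the difference of the TSA changes was 0.0077 for Tpm1 1423049_a_at and -0.033 for Mylk 1425505_at. When each line was left out in turn, TSA minus vehicle ran from -0.40 to 0.0085 for Tpm2 1419739_at, from -0.048 to 0.31 for Tpm1 1423049_a_at, from -0.21 to 0.0052 for Tpm2 1425028_a_at and from -0.61 to 0.026 for Mylk 1425505_at, and these 4 turned without flox1. For Tagln it ran from -0.27 to 0.073 and turned without triCH1flox2. The difference of the TSA changes ran from -0.0081 to 0.54 for Tpm2 1419738_a_at, from -0.67 to 0.037 for Tpm1 1423049_a_at, from -0.068 to 1.20 for Mylk 1425505_at and from -0.10 to 1.72 for Acta2 1456658_at. triCH1 minus control ran from -0.19 to 0.0013 for Tpm1 1423049_a_at. It was 0.11 on vehicle arrays and 0.11 on TSA with DP arrays, where Tagln (0.091), Tpm1 1423721_at (0.034) and Myl9 (0.00033) turned too. Dim probe sets (Myh11 and the lower ones of Acta2 and Mylk) limit what can be seen.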

Other observations

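Probe sets of 1 gene did not always move alike. Acta2 1456658_at had 331 with TSA and 79.5 with vehicle in triCH1flox2, a change of 1.56 on the log2 scale, while its changes in triCH1flox1, flox1 and flox2 were -0.26, -0.25 and -0.077. Mylk 1425505_at read 769 on the flox1 vehicle array and 212 to 438 on the other 7 control arrays. Thy1, which was lower in the triCH1 lines, rose with TSA and DP against DP (0.34, adjusted p = 0.00613, limma). In that comparison 23.6% of all probe sets were called, and of all 11481 genes, by their brightest probe sets, 1887 rose and 1288 fell. Of the pericyte markers, 3 of 4 rose in it: Mcam by 0.94 (adjusted p = 0.00241), Des by 0.81 (0.0308) and Cspg4 by 0.44 (0.0112, limma). The neuronal tubulin Tubb3 rose with TSA to 358 ± 106, against 140 ± 85.4 with vehicle (SD, n = 4 lines; adjusted p = 0.00242, limma).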
